A study of Mus musculus with 10 samples.

Results

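The enzymes described here carry acetyl-CoA to cholesterol, and 7 of them were read in microdissected tissue holding the hindbrain and pharyngeal arches 1 to 4 of E10.5 mouse embryos. They are Hmgcs1, Idi1, Fdps, Fdft1, Sqle, Lss and Dhcr7, taken by gene symbol in the platform annotation, and they account for 17 of the 22626 probe sets that are not array controls. Of these 17 probe sets, 14 passed the filter on dim signal (a log2 value over 4 on at least 5 of the 10 arrays), and each of the 7 genes kept at least 1. The first group held 5 embryos homozygous for a gene trap in Fbln1, labelled null or knockout, and the other held 5 wildtype embryos. Fbln1 encodes fibulin-1, a secreted matrix glycoprotein, and the study asked how its loss affects signalling by fibroblast growth factor 8. All embryos came from matings of heterozygous carriers and were genotyped from yolk sac, so the trap was present in all cells of a null embryo. The labels give neither litter nor embryo sex, and a p-value here measures only the spread between the samples at hand.

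Cholesterol synthesis starts with the joining of acetyl units, passes through mevalonate and the isoprenoid diphosphates, commits to sterols at squalene and closes the ring at lanosterol. Its enzymes are commonly transcribed together under the sterol-sensing factor SREBP-2, which is released from the endoplasmic reticulum when membrane sterol is low. In the early embryo cholesterol is needed for membranes and is attached to Hedgehog proteins. Loss of the last enzyme of the pathway, Dhcr7, is known in humans for malformations of the face and brain.

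None of the 7 enzymes passed the test of a difference between the genotypes. With limma fitted across 9801 probe sets, 0 of the 14 enzyme probe sets had a Benjamini-Hochberg adjusted p under 0.05, and their adjusted p ran from 0.441 to 0.999. Among all probe sets tested, 0.0204% were past that threshold. At an unadjusted p under 0.05 stood 0 of the 14, against 12.4% of all probe sets, and the exact permutation test gave 0.0476 for 1 Idi1 probe set and higher values for the other 13. The 2 genotypes overlapped on all 14, whereas 2.77% of all probe sets did not overlap. By the probe set with the highest signal of each gene, the null mean was above the wildtype mean for 5 of 7 enzymes, beside 43.1% of all 5912 genes, and the median log2 fold change was 0.03 over the 7 enzymes and -0.04 over all genes. The count over all 14 probe sets was 10 above and 4 below, and it was 5 of 14 above without null replicate 4 and 6 of 14 without wildtype replicate 4. A p that misses the threshold does not show equal levels. The 95% intervals allow a fold between 0.65 and 1.57 for 13 of the 14 probe sets, and between 0.45 and 1.55 for the remaining one, of Lss.

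**Figure D1:**
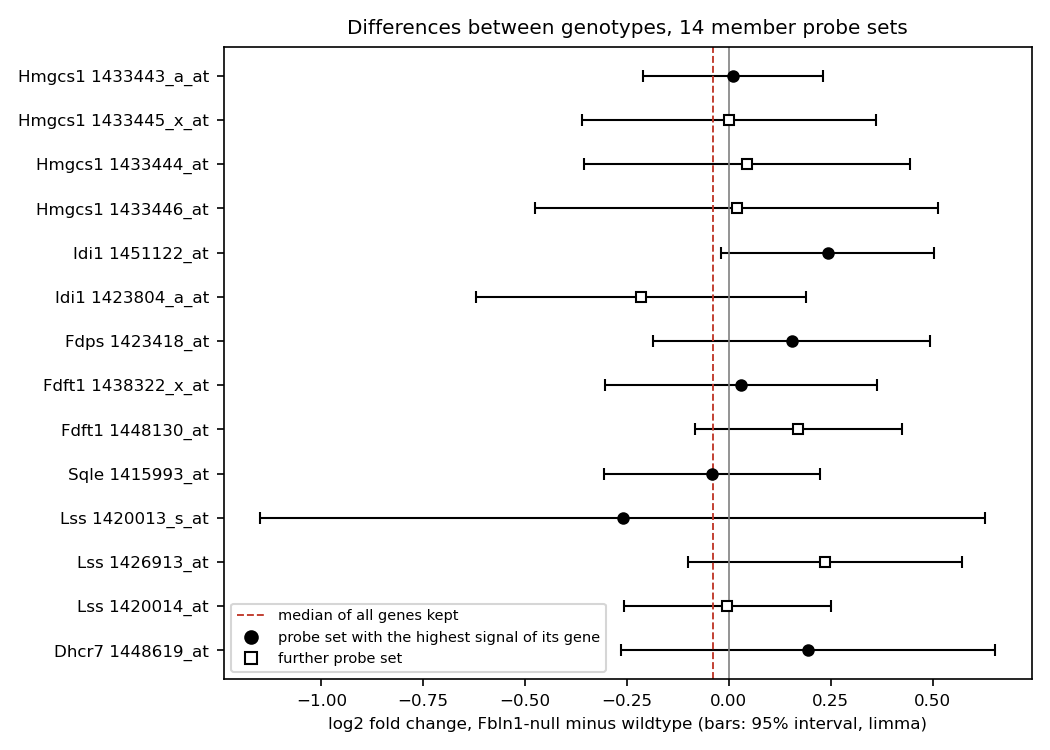
Log2 fold change of each of the 14 enzyme probe sets, Fbln1-null minus wildtype, with 95% intervals from limma (n = 5 arrays a group). Every interval spans 0, and the widest belongs to the Lss probe set 1420013_s_at.

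Hmgcs1, the cytosolic synthase that makes HMG-CoA, the substrate of the step that yields mevalonate, was read by 4 probe sets, and the null and wildtype means lay close together on each. On 1433443_a_at the log2 signal was 13.57, 13.60, 13.36, 13.47 and 13.48 in null replicates 3, 4, 5, 7 and 8, against 13.46, 13.50, 13.50, 13.49 and 13.48 in wildtype replicates 1 to 5. The null arrays lay on both sides of the tight wildtype range. The difference was 0.01 on the log2 scale (SE 0.10, 95% interval -0.21 to 0.23, limma adjusted p = 0.985), and with quantile normalization it was -0.01. On the other 3 Hmgcs1 probe sets the log2 fold changes were 0.00075, 0.02 and 0.04. Of these, 1433446_at spanned 8.85 to 9.88 in null and 8.91 to 9.96 in wildtype arrays. Null replicate 5 was the lowest null array on all 3, and wildtype replicate 3 was the highest of all arrays on each. Pearson's r over the 10 arrays between these 3 probe sets, which are annotated to the same gene, was 0.73 to 0.89, and that of 1433443_a_at with them was 0.33 to 0.67. The signal on 1433443_a_at stands near the top of the deposited scale, which ends at 14.83 on these arrays, and whether its small spread comes from that was not tested.

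The RefSeq promoter table held 4 of the 7 genes (Hmgcs1, Idi1, Lss and Dhcr7), with a single window each for the first 3 of these, and those 3 windows are shown because the enzymes are usually regulated together through elements near their starts. Each runs from 250 bases before to 50 bases after the start of the gene, build GRCm38.p6, plus strand, 5′ to 3′. Hmgcs1 lies at chr13:119690101-119690400, Idi1 at chr13:8885356-8885655 and Lss at chr10:76531355-76531654. Capitals mark matches, on either strand, to the sterol regulatory element patterns TCACNCCAC and CACCCCAC, which overlap each other, and to the NF-Y box CCAAT, which on the strand shown here reads as its reverse complement.
Hmgcs1: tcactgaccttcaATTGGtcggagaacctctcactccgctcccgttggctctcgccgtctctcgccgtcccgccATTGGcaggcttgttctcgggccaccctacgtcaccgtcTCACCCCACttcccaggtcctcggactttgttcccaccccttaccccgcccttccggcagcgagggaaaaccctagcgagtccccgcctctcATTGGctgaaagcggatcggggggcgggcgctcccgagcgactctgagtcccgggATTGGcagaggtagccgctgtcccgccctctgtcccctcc
Idi1: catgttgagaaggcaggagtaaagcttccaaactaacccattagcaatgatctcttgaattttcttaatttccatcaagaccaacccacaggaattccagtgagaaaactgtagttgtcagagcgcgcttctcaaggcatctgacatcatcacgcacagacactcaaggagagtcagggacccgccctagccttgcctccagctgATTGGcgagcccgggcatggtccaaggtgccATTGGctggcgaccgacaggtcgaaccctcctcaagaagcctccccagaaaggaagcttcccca
Lss: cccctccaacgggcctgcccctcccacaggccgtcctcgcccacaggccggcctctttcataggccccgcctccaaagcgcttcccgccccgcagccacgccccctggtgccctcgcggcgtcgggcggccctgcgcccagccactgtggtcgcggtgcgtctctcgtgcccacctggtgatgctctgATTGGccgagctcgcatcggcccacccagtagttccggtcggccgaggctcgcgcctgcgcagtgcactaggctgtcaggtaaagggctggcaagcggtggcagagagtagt
Hmgcs1 was the 1 gene of the 4 with a TCACNCCAC match, 137 bases before the start, a pattern present in 1.24% of the 32851 windows of the table, while CACCCCAC was in 2.87%. CCAAT occurred in 4 of the 6 windows of these genes, at least 1 for each gene, and in 37.4% of all windows. Hmgcs1 held 4 copies, Idi1 2 and Lss 1. GGGCGG, an Sp1 pattern not marked here, occurred in 5 of the 6 windows, again at least 1 for each gene, and in 35.7% of all windows. A match is a match of letters only, and nothing about binding was measured.

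Idi1, the isomerase that makes dimethylallyl diphosphate, had the smallest p of the enzymes, and its 2 probe sets pointed in opposite directions. On 1451122_at the log2 signal was 9.26, 9.27, 9.23, 9.11 and 9.26 in null replicates 3, 4, 5, 7 and 8. In wildtype replicates 1 to 5 it was 8.91, 8.94, 9.28, 8.75 and 9.03. All 5 null arrays lay above 4 of the 5 wildtype arrays, and wildtype replicate 3 lay above them all. The log2 fold change was 0.24 (SE 0.12, 95% interval -0.02 to 0.50), with a limma p of 0.0655 and an adjusted p of 0.441, and the two-sided exact permutation test gave 0.0476 with no adjustment. On 1423804_a_at the values were 8.18, 8.39, 8.49, 7.94 and 9.03 in null arrays, against 8.73, 8.32, 8.60, 8.68 and 8.78 in wildtype arrays. Here 1 null array, replicate 8, was the highest of all and 2 others were the lowest. The log2 fold change of 1423804_a_at was -0.22 (SE 0.19, limma adjusted p = 0.690), and without null replicate 8 it was -0.37 (SE 0.15, limma adjusted p = 0.350). Between the 2 Idi1 probe sets Pearson's r over the 10 arrays was -0.13, although the annotation gives both the same gene and the same accession.

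Fdps, the synthase of farnesyl diphosphate, the branch point to sterols and to prenylated proteins, was read above the filter by 1 probe set. Its log2 signal was 6.09, 6.03, 5.85, 6.13 and 6.43 in null arrays, against 5.53, 5.86, 6.08, 6.07 and 6.25 in wildtype arrays. The highest array was null replicate 8 and the lowest wildtype replicate 1, with the others intermixed. Its log2 fold change was 0.15 (SE 0.16, limma adjusted p = 0.739), and it was -0.02 without wildtype replicates 1 and 2 together. With the log2 difference between the 3′ and 5′ beta-actin control probe sets in the fit, it was 0.33 (SE 0.16, limma adjusted p = 0.444). The further Fdps probe set, 1438150_at, stayed at the bottom of the scale on all arrays, at 2.27 to 2.29 in null and 2.27 in wildtype tissue.

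Fdft1, squalene synthase, which makes the first dedicated sterol precursor, was read above the filter by 2 of its 4 probe sets. On 1438322_x_at the log2 signal was 8.58, 8.92, 8.89, 8.29 and 9.06 in null arrays, against 8.66, 8.74, 8.72, 8.57 and 8.90 in wildtype arrays. The null arrays spread on both sides of the wildtype range (SD 0.31 in null and 0.12 in wildtype, n = 5 each), and the log2 fold change was 0.03 (SE 0.15). On 1448130_at the values were 6.91, 7.13, 7.13, 7.09 and 7.15 in null arrays, against 6.72, 6.74, 7.05, 7.01 and 7.02 in wildtype arrays. There 4 null arrays lay above all wildtype arrays and null replicate 3 lay among them. The log2 fold change of 1448130_at was 0.17 (SE 0.12, limma adjusted p = 0.595), and it was 0.05 without wildtype replicates 1 and 2 together. The 2 dim Fdft1 probe sets read 2.27 to 3.19 in null and 2.27 to 2.31 in wildtype arrays, with the value of 3.19 from null replicate 8 alone.

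Sqle, squalene epoxidase, a rate-limiting oxygen-dependent step, had 1 probe set. Its log2 signal was 6.23, 6.56, 6.26, 6.48 and 6.38 in null arrays, against 6.45, 6.52, 6.16, 6.43 and 6.58 in wildtype arrays. The ranges coincided almost entirely, and the log2 fold change was -0.04 (SE 0.12, 95% interval -0.31 to 0.22, limma adjusted p = 0.928). With quantile normalization it was 0.01.

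Lss, lanosterol synthase, which folds oxidosqualene into the first sterol ring, varied most between arrays of the same genotype. On 1420013_s_at the log2 signal was 5.24, 6.004, 4.02, 4.38 and 5.28 in null arrays, against 5.88, 5.78, 5.12, 3.94 and 5.52 in wildtype arrays. Both genotypes held arrays near 4 and arrays near 6, with SD 0.79 in each (n = 5). The log2 fold change was -0.26 (SE 0.41, 95% interval -1.15 to 0.63, limma adjusted p = 0.853). It was 0.13 without wildtype replicates 1 and 2 together, and leaving out 1 array gave -0.59 (wildtype replicate 4) to -0.02 (null replicate 5). Probe sets ending in _s_at can match transcripts of several genes, so this spread need not be that of Lss. On 1426913_at the values were 4.79, 4.35, 4.44, 4.70 and 4.20 in null arrays, against 4.20, 4.42, 4.32, 3.87 and 4.47 in wildtype arrays, which gave 0.24 on the log2 scale (SE 0.15, adjusted p = 0.573 in limma). The null arrays 3 and 7, intermediate and low on 1420013_s_at, were the 2 highest here, and r between these Lss probe sets was 0.13. The third, 1420014_at, read 3.70 to 4.23 in null and 3.99 to 4.0003 in wildtype arrays and was over log2 4 on 5 arrays only.

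Dhcr7, the reductase that converts 7-dehydrocholesterol to cholesterol, had 1 probe set. Its log2 signal was 8.33, 7.85, 8.27, 7.20 and 7.87 in null replicates 3, 4, 5, 7 and 8, against 8.08, 7.84, 7.37, 7.54 and 7.72 in wildtype replicates 1 to 5. The null arrays held both the 2 highest values and the lowest. Null minus wildtype was 0.19 on the log2 scale (SE 0.21, 95% interval -0.26 to 0.65, limma adjusted p = 0.766). It depended on single arrays, with 0.37 without null replicate 7 and 0.09 without null replicate 3, and it was 0.36 without wildtype replicates 1 and 2 together. Null replicates 3 and 5, the highest for Dhcr7, also had the largest log2 difference between the 3′ and 5′ beta-actin control probe sets, a measure of RNA integrity and labelling, at 2.59 and 2.85. That difference was 2.19 to 2.85 in null arrays and 1.9997 to 2.38 in wildtype arrays, and with it in the fit the Dhcr7 log2 fold change was -0.06. Its part in the Dhcr7 signal was not tested further. In bulk tissue, fewer cells of a type and less RNA per cell cannot be told apart, for Dhcr7 and the other enzymes alike.

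**Figure D2:**
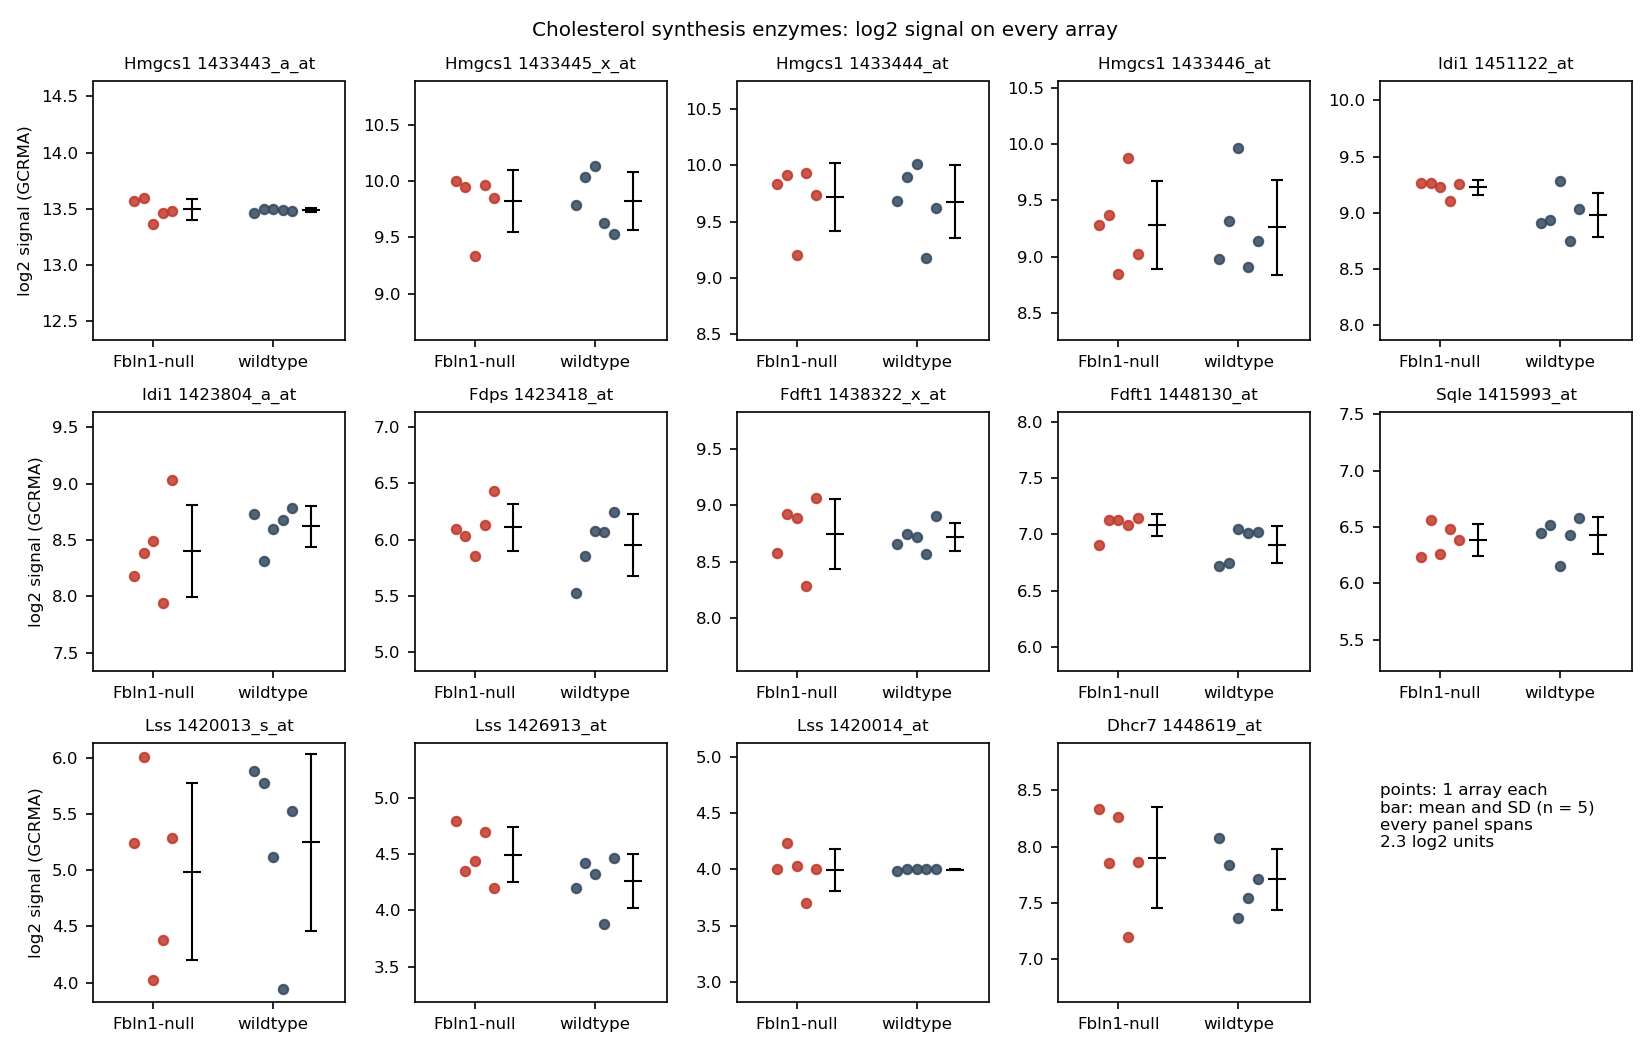
Log2 signal (GCRMA) of the 14 enzyme probe sets over the filter on each array, Fbln1-null left and wildtype right, with mean and SD (n = 5) and each panel spanning the same number of log2 units. The genotypes overlap in every panel, and the arrays of Lss 1420013_s_at spread over 3.94 to 6.004.

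Across arrays the enzymes did not form a single tight profile. Over the 21 pairs of enzymes, each by the probe set with the highest signal, Pearson's r over the 10 arrays had a median of 0.19 and ran from -0.47 (Idi1 with Sqle) to 0.58 (Hmgcs1 with Lss). For all pairs of the 5912 genes the median was 0.016 and the quartiles were -0.28 and 0.31. Positive values were found for 14 of the 21 enzyme pairs and 51.4% of all pairs. These are descriptions over arrays that share 1 normalization, and pairs are not independent. The mean deviation of the 7 enzymes from their own averages was 0.09, 0.22, -0.11, -0.23 and 0.15 log2 units in null arrays, against 0.04, 0.07, -0.07, -0.27 and 0.11 in wildtype arrays. Null replicate 7 and wildtype replicate 4 were the lowest arrays of their genotypes, and Lss, with the widest spread, weighs most in this mean. The genes closest to this mean profile were 2210016L21Rik (r = 0.92 over 10 arrays), Rassf8 (0.87), Wnk2 (0.86), Avpi1 (0.83) and Dst (0.83). Their own log2 fold changes ran from -0.09 for Rassf8 to 0.17 for Avpi1, with limma adjusted p of 0.884 and 0.696. These genes were picked for the highest r among all genes over the filter. With 10 arrays such a ranking gives high r by itself, so the values do not show a shared profile. The null means of 2210016L21Rik and Wnk2, 4.18 and 4.32, stood near the filter.

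**Figure D3:**
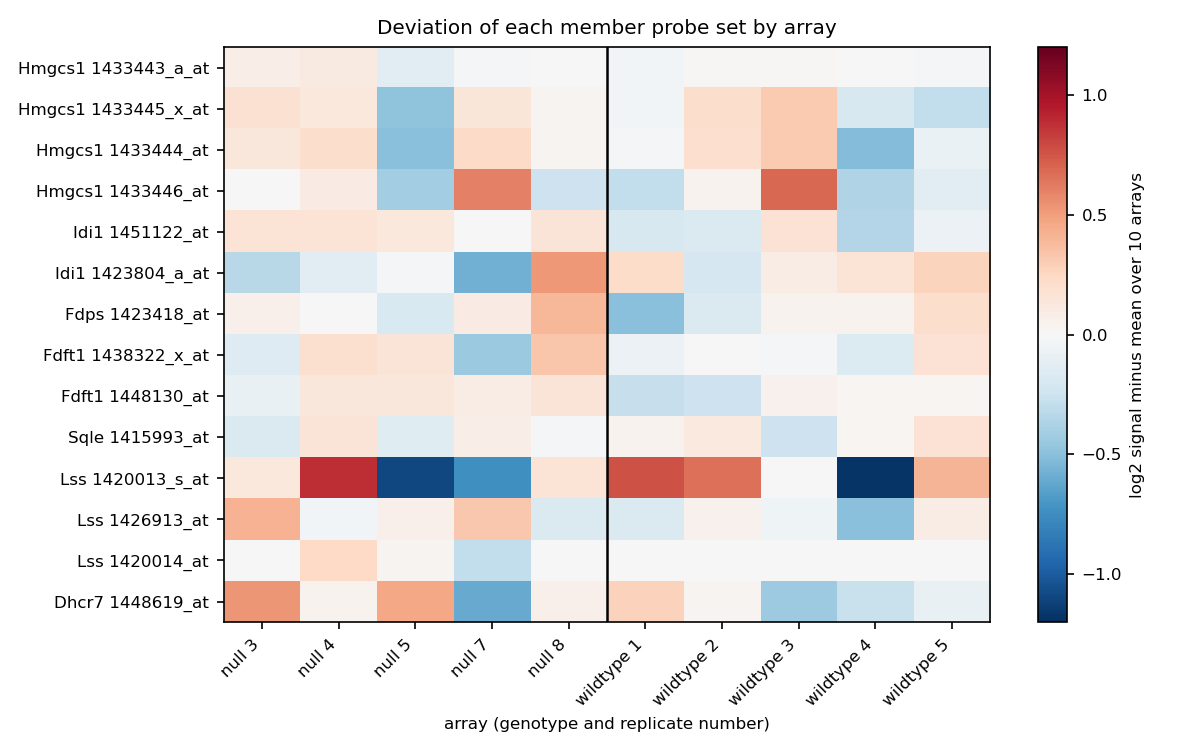
Log2 signal of each enzyme probe set minus its mean over the 10 arrays, with Fbln1-null arrays left of the line and wildtype arrays right. The 3 further Hmgcs1 probe sets share a pattern, below average in null replicate 5 and wildtype replicate 4, that Idi1, Fdps, Fdft1 and Sqle do not repeat as a block. Lss 1420013_s_at was also lowest in these arrays (log2 signal 4.02 and 3.94).

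Other genes of sterol and lipid metabolism were read through 6 lists of 52 genes, of which 29 were over the filter. No gene of the 29 passed an adjusted p of 0.05 in limma, and 2 had an unadjusted p under 0.05 (6.90%, against 12.8% of all genes). The null mean was above the wildtype mean for 10 of the 29 and below it for 19 (34.5% above, against 43.1% of all genes). Their median log2 fold change was -0.05, close to the -0.04 of all genes. Among the other sterol synthesis enzymes 3 were above and 8 below (median -0.12). Pmvk, the phosphomevalonate kinase, had -0.25 (SE 0.16), Ggps1, which makes geranylgeranyl diphosphate, -0.16 and Lbr, a sterol reductase of the nuclear envelope, -0.15. Of the SREBP sensing genes, Srebf2, the factor SREBP-2 itself, had -0.04 (SE 0.20), Mbtps1, a protease that releases it, -0.18 and Insig2, an anchor that retains it, 0.17. Srebf1 and Scap were under the filter. In the mevalonate side branches 1 gene was above and 2 below, with -0.08 for Rabggtb, 0.05 for Fnta and -0.03 for Dhdds, which serve protein prenylation and dolichol synthesis.

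The largest differences in these lists belonged to sterol movement and fatty acid genes, and none passed. Stard4, a cytosolic sterol carrier, had 7.71, 7.87, 7.27, 7.81 and 7.54 in null arrays, against 7.23, 6.89, 7.52, 7.31 and 7.33 in wildtype arrays. Its groups overlapped through null replicate 5 and wildtype replicate 3 (log2 fold change 0.38, SE 0.15, limma adjusted p = 0.339). Abca1, the exporter of cellular cholesterol, had 5.40, 5.32, 4.93, 5.17 and 4.29 in null arrays, against 4.70, 4.29, 5.02, 3.77 and 4.64 in wildtype arrays. Null replicate 8 lay as low as wildtype replicate 2 (log2 fold change 0.54, SE 0.25, limma adjusted p = 0.416), and Abca1 was the 1 export gene over the filter. Fads2, the delta-6 desaturase of polyunsaturated fatty acids, had 7.84, 7.51, 7.52, 6.74 and 7.33 in null arrays, against 8.33, 8.09, 7.53, 7.83 and 7.78 in wildtype arrays. All null arrays but replicate 3 lay below the wildtype range (log2 fold change -0.52, SE 0.21, limma adjusted p = 0.338). Null replicates 4 and 5 did so only barely, at 7.51 and 7.52 against 7.53 in wildtype replicate 3. The other 2 lipid enzymes named stood the other way, with 0.31 (SE 0.17) for Scd1, a stearoyl-CoA desaturase, and 0.25 (SE 0.15) for Acly, the source of cytosolic acetyl-CoA. They were the only genes of the fatty acid list above wildtype, with 2 above and 5 below (median -0.11). Osbpl9 and Npc2, both sterol-binding proteins, had -0.09 and 0.04.

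**Figure D4:**
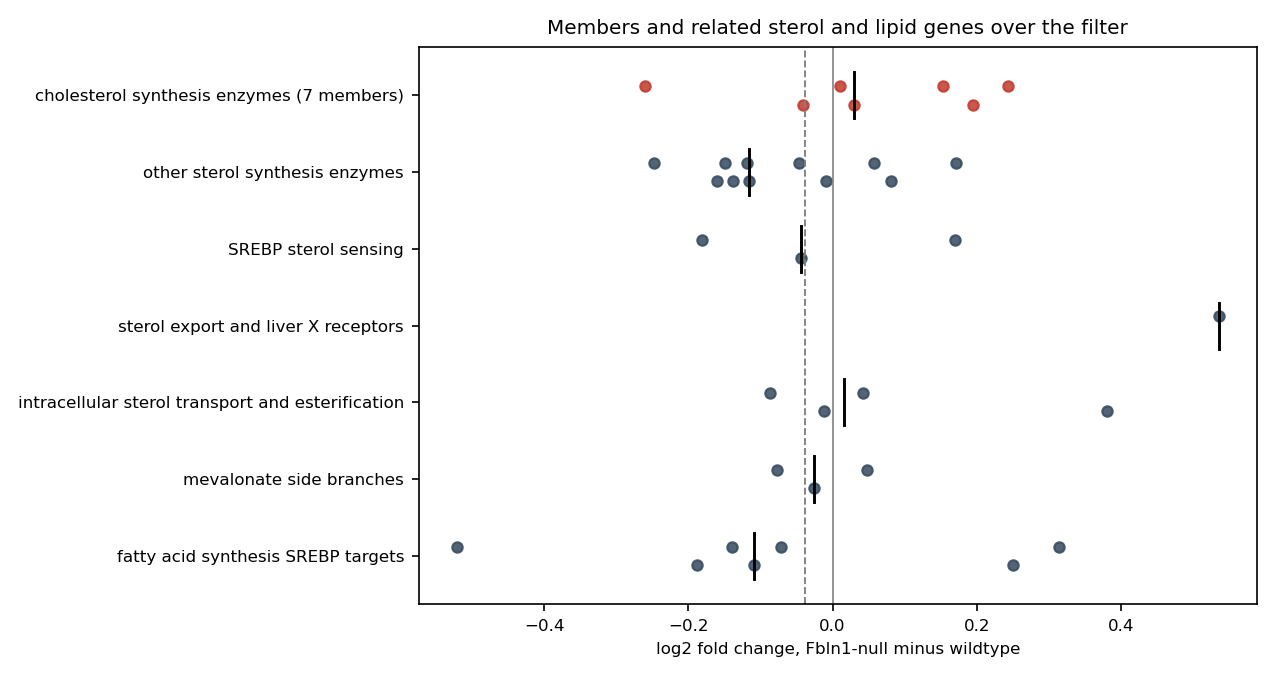
Log2 fold change, Fbln1-null minus wildtype, of the 7 enzymes (top, red) and of the genes over the filter in 6 related lists, 1 point per gene, with the median of each list as a black bar and the median of all genes dashed. The 7 enzymes lie between -0.26 and 0.24, and Fads2 at -0.52 and Abca1 at 0.54 lie farthest out.

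The genotype labels and the tissue were checked on the same arrays. Fbln1 signal on 1451119_a_at was 2.52 to 2.85 in null arrays and 3.83 to 5.11 in wildtype arrays (exact permutation test, two-sided, p = 0.00794, the lowest value possible with 5 arrays a group). Both Fbln1 probe sets were under the filter, so the limma fit used for the enzymes did not hold them. In limma without a filter their log2 fold changes were -1.88 (1451119_a_at, adjusted p = 0.0715) and -1.12 (1422540_at, adjusted p = 0.303). Markers of neurons (11 of 11 over the filter) and of neural progenitors (7 of 8) were present, and of arch mesenchyme 6 of 10, with Hand2, Msx1, Dlx5 and Alx4 under the filter. By their means, 9 of 11 neuron markers were above wildtype in null tissue, 6 of 7 progenitor markers and 9 of 11 cell cycle genes below it, and 0 of them passed an adjusted p of 0.05. Of all genes 43.1% were above wildtype, so a position below it was the more common one. The summed neuron signal was 12.4 to 13.0 in null and 12.04 to 13.1 in wildtype arrays (log2 of the summed linear values), and that of the progenitor markers was 10.9 to 11.6 and 11.01 to 11.9. The progenitor sum mostly follows Fabp7, the 1 progenitor marker not below wildtype (mean 11.06 in null and 11.03 in wildtype arrays). Over the 7 progenitor markers the median log2 fold change was -0.44, with -0.52 for Pax6 (limma adjusted p = 0.222). Of 9 liver, yolk sac and gut markers, which come from organs with strong sterol metabolism, 8 were under the filter, Alb, Afp and Apob among them, and Ttr was the 1 over it. Ttr was uneven, at 5.18 to 9.07 in null and 4.44 to 8.96 in wildtype arrays, lowest in null replicate 8 and wildtype replicate 4. Erythroid markers were over the filter for 4 of 7, with a summed signal of 13.5 to 14.3 in null and 13.02 to 14.2 in wildtype arrays. The part of these cell types in the enzyme values was not tested.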

How the data were processed

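RNA from 10 embryos was labelled with biotin for Affymetrix arrays, per the labels' protocols. The authors deposited log2 values from GCRMA (submitters' processing notes; its version is not given in the sources used here). That method subtracts background by probe sequence, normalizes between arrays and summarizes each probe set, and it compresses dim values. The table held 22690 probe sets. The 64 controls were left out, and 20380 of the other 22626 carried a single symbol in the platform's annotation and could be named. Array medians were 3.20 to 3.29, correlations between arrays 0.985 to 0.996, and 0 pairs were identical.

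Probe sets over log2 4 on at least 5 of 10 arrays (9801) were compared with limma 3.58.1 (lmFit and eBayes) in R 4.3.3, genotype alone, two-sided, with Benjamini-Hochberg adjustment over all of them. The eBayes step draws the variance of each probe set towards that of all probe sets tested, so an SE does not rest on its own values alone. A gene is represented by its probe set with the highest mean signal. Single probe sets also had an exact permutation test (SciPy 1.17.1) over the 252 assignments of arrays. The fit was tested on simulated data. The number of arrays limits the precision.

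The enzymes and all lists were chosen with earlier results of these data known. Named genes are the 7 enzymes, up to 3 genes with the smallest p in each related list, the 5 genes with the profile most like the mean of the enzymes, and Fbln1. The marker genes were named after their values were seen. Promoter sequences are from RefSeq, GRCm38.p6. The alternatives were scaling, filters, a floor, variance model, array weights, replicate block, actin ratio, arrays left out and the mean of probe sets. Listed genes without a single-symbol probe set were not analysed here.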

Additional observations from a re-analysis of the deposited data

Results flagged for a closer look

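In each genotype the highest or lowest array was set against the other 4 by its gap over the range of the group (critical value 0.71), for the enzymes over the filter, the named genes and Fbln1. Of 74 groups checked 7 stood out, and chance gives about 1 in 20. Null replicate 5 was low on 2 Hmgcs1 probe sets, at 9.34 on 1433445_x_at (other null arrays 9.85 to 10.004) and at 9.20 on 1433444_at (9.73 to 9.93). Null replicate 7 was low on Idi1 1451122_at, at 9.11 (others 9.23 to 9.27), and null replicate 3 on Fdft1 1448130_at, at 6.91 (others 7.09 to 7.15). Wildtype replicate 1 read 3.99 on Lss 1420014_at, where the other wildtype arrays read 3.9995 to 4.0003, a gap of no practical size. Wildtype replicate 4 was high for Insig2, at 5.82 (others 4.95 to 5.20). Null replicate 7 read 2.88 on the dimmer Fbln1 probe set (others 2.26 to 2.40).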

How the results depend on the processing

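The count of enzyme probe sets past an adjusted limma p of 0.05 was 0 under all 19 alternatives. At an unadjusted limma p under 0.05 it was 0 under 13 of them and 1 under the other 6, namely Idi1 1451122_at with quantile normalization, without a filter, with array weights and without wildtype replicate 3, Idi1 1423804_a_at without null replicate 8, and Dhcr7 with the replicate block (log2 fold change 0.61). The median log2 fold change of the 7 enzymes ran from -0.01 to 0.15, both ends from leaving out 1 array, and was above 0 under 19 of 20 alternatives. The probe sets with a higher null mean numbered 5 to 11, with a null mean above wildtype for 41.3% to 53.1% of all genes. The same sign under all alternatives was kept by both Idi1 probe sets, Lss 1426913_at and Fdft1 1448130_at. Over all probe sets the count past the threshold was 2, and 1 without a filter, 34 with a log2 6 filter or array weights, 8 with trend and robust variance, and 0 with the actin ratio or without wildtype replicates 1 and 2 together. Leaving out 1 array gave 0 to 7. With the replicate block it was 0, and the log2 fold changes of Fdps 1423418_at and Lss 1420013_s_at were -0.14 and 0.23, against 0.15 and -0.26 without the block. Only numbers 3, 4 and 5 occur in both genotypes, so log2 fold changes with the block, that of Dhcr7 included, rest on those arrays alone. The deviations of same-numbered arrays correlated at -0.19, -0.34 and 0.16. Differently numbered arrays were not set beside them, so whether the numbers pair the embryos was not tested. With 5 arrays a group, differences of any size inside the intervals given remain possible.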
